A study of Mus musculus with 3 samples.

Results

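This comparison is between 2 single-cell RNA libraries of mouse germ cells, each made after knockdown of the long non-coding RNA gene Gm4665 with a different short hairpin. The library of Gm4665-shRNA2 (hairpin 2) was set against that of Gm4665-shRNA1 (hairpin 1). Its members are the 1873 cells with hairpin 2 and the 1732 cells with hairpin 1, taken by the library prefix of their columns, which are 3605 of the 5023 cells in the series. The remaining 1418 cells carried a control hairpin (shCtrl) and are quoted only as a reference level. All groups were ICR mice, an outbred stock, with 3 mice per group. AAV9 carrying a hairpin and a red fluorescent protein (RFP) was injected into the testes on postnatal day 21, with the control hairpin in one testis of an animal and a hairpin against Gm4665 in its other testis. RFP-positive germ cells were sorted after removal of somatic cells, and 3' RNA was sequenced from droplets. Neither the age at collection nor the hairpin sequences were found in the labels, and the labels do not tie cells to single mice.

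Each hairpin had 1 library, so that hairpin, animals and library preparation cannot be told apart and no test across libraries was possible. Differences were judged by size, and the 95% intervals given cover counting error only. The column prefixes end in 1 and 2, and they were matched to the hairpins by that digit alone. Every direction below would be reversed if the match were wrong.

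A short hairpin RNA is cut by Dicer into a duplex, one strand of which guides an Argonaute protein to RNAs that pair with it. Hairpins against different stretches of one transcript share that target but carry different guide strands. In the testis, spermatogonia enter meiosis through the leptotene and zygotene stages, pair their chromosomes in pachytene, and become round and then elongating spermatids that exchange histones for protamines. Gm4665 lies at chr9:115180404-115186058 (mm10) on the minus strand and is annotated as antisense to Osbpl10, which encodes an oxysterol-binding protein.

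The hairpin 1 library held 38330044 UMIs (unique molecular identifiers, counts of captured RNA molecules) and the hairpin 2 library 44640351. The median cell held 14668 UMIs with hairpin 1 and 16518 with hairpin 2, and the mean mitochondrial share was 1.22% and 1.43%. The libraries shared 7 cell barcodes. Clustering of all 3 libraries gave 22 clusters. 4 germ classes passed the check of their markers and were compared as classes. These were spermatogonia (cluster 7), spermatocytes from pachytene to diplotene (clusters 4, 13, 14 and 20), round spermatids (2, 3, 8, 9 and 11), and elongating and condensing spermatids (0, 1 and 6). The check only looks for more markers of another class, so that passing it does not establish a name. Clusters 3, 4, 6, 9, 11, 13 and 20 passed with 0 markers of any class among their 10 leading genes. Cluster 13 had 9 of 16 pachytene to diplotene markers raised, and also 9 of 16 round spermatid markers. The class of leptotene to zygotene markers (clusters 10, 12 and 18) did not pass, because clusters 12 and 18 had more markers of another class than of their own among their 10 leading genes. The class of antibody-producing cell markers (15, 16 and 19) did not pass because of cluster 16. Clusters of both were compared by number. Cluster 10 had 9 of 13 leptotene to zygotene markers raised, and also 10 of 12 Sertoli cell markers. The label of RFP-positive germ cells held for most cells, but clusters 15, 16, 19 and 21 showed leukocyte genes, and clusters 5 and 17 mixed somatic with germ cell markers.

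Gm4665 itself stood at 52.8 counts per 1000000 UMIs (CPM) with hairpin 1 (interval 50.5 to 55.1) and at 79.1 CPM with hairpin 2 (76.5 to 81.8). The control library held 311 CPM. Over all cells, the hairpin 2 library thus held 1.5 times as much of the target as the hairpin 1 library (interval 1.42 to 1.58). Against the control level, also over all cells, 16.96% was left with hairpin 1 and 25.4% with hairpin 2. The make-up of the libraries enters these sums. Weighted to one mix of classes, as described below, Gm4665 was at 52.5 CPM with hairpin 1 and 91.3 CPM with hairpin 2. Within germ classes, 12.8% (spermatogonia, on 11 UMIs) to 24.3% (elongating and condensing spermatids) was left with hairpin 1. With hairpin 2, 23.5% (round spermatids) to 43.02% (elongating and condensing spermatids) was left.

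The order of the hairpins was the same in the 4 germ classes compared. In elongating and condensing spermatids, where Gm4665 was most abundant, its level was 118 CPM with hairpin 1, 208 CPM with hairpin 2 and 483 CPM in the control. In round spermatids the levels were 39.0, 57.1 and 243 CPM. In pachytene to diplotene spermatocytes they were 9.40, 14.5 and 52.1 CPM. In spermatogonia they were 7.80, 23.8 and 61.1 CPM, on 11, 43 and 26 UMIs. Gm4665 was not set against its level in leukocytes. Low levels such as those in spermatogonia can include free RNA from other cells, and that part was not tested. The 95% intervals of the hairpins did not overlap in any of these 4 classes; the spermatocyte values rest on 102 and 131 UMIs. Osbpl10, on the opposite strand over the same stretch, was at 104 CPM with hairpin 1 and 89.0 CPM with hairpin 2. No source states whether counting used the strand, so reads of the overlapping pair cannot be told apart. Of the other genes within 1000 kb that were abundant enough to compare, Stt3b was at 184 and 157 CPM, Rps27rt at 225 and 274 CPM and Cnot10 at 17.6 and 17.9 CPM, and none of them differed 2-fold.

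The make-up of the libraries differed in elongating spermatids and in clusters 10 and 12. Elongating and condensing spermatids were 30.5% of cells with hairpin 1 (interval 28.4% to 32.8%) and 20.7% with hairpin 2 (18.9% to 22.6%), against 39.9% in the control. Clusters 10, 12 and 18 together were 5.20% with hairpin 1 and 12.3% with hairpin 2, and 6.91% in the control. The remaining germ classes had intervals that overlapped: spermatogonia were 6.06% and 6.99%, pachytene to diplotene spermatocytes 16.5% and 15.5%, and round spermatids 30.7% and 27.2%. Leukocyte clusters 15, 16, 19 and 21 together held 5.31% of cells with hairpin 1, 9.56% with hairpin 2 and 1.34% in the control, but some of their leading genes differed 2-fold between the hairpins inside the clusters, so that these sizes are given without comparison. The sort for RFP and the removal of somatic cells can themselves set these shares.

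Within classes, cells were placed differently. The round spermatid cluster with the most hairpin 1 cells was cluster 3 (13.05% of cells, against 6.73% with hairpin 2), and that with the most hairpin 2 cells was cluster 2 (11.48%, against 6.35%). Median depth in cluster 2 was 29176 UMIs with hairpin 1 and 14664 with hairpin 2. Of the elongating clusters, cluster 1, led by the transition protein genes Tnp1 and Tnp2, held 13.7% and 6.03%, cluster 6 held 4.73% and 2.46%, and cluster 0 held 12.1% and 12.2%. Gm4665 was among the leading genes of cluster 1. Clustering without Gm4665 put the elongating class at 37.1% and 24.99%, again higher with hairpin 1. Outside the named classes, cluster 10 held 2.25% and 6.19%, cluster 12 held 1.56% and 5.18%, and cluster 18 held 1.39% and 0.961%.

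**Figure D1:**
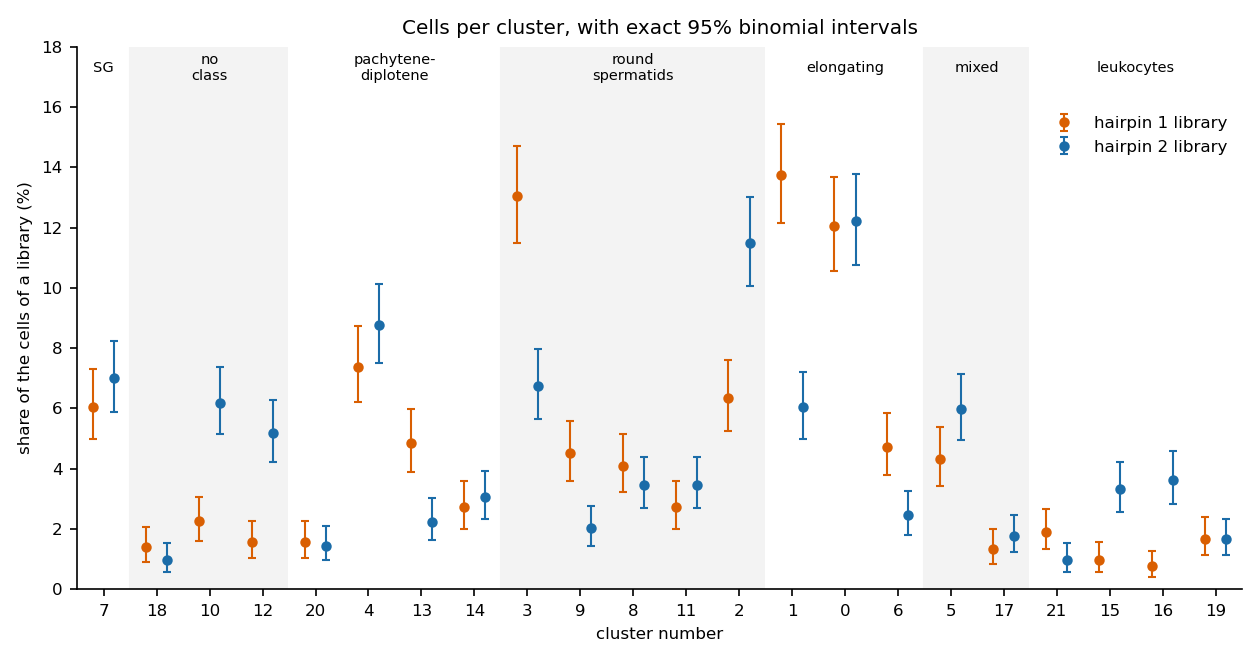
Share of cells (y axis, %) in each of the 22 clusters (x axis) for the hairpin 1 (orange) and hairpin 2 (blue) libraries; points are shares, bars exact 95% binomial intervals, SG marks spermatogonia, and "no class" marks clusters 10, 12 and 18, which were compared by number. Clusters 10 and 12 are higher with hairpin 2 (6.19% and 5.18% against 2.25% and 1.56%), and clusters 3 and 1 are higher with hairpin 1.

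Over all cells, 7255 genes were abundant enough to compare (a mean of at least 10 CPM and at least 30 UMIs). Of these, 156 were at least 2-fold higher with hairpin 2 (2.15% of genes compared) and 31 were at least 2-fold lower (0.427%). Folds are on the log2(CPM + 1) scale. The median gene differed by 0.00. Few cells of a type and little RNA per cell cannot be told apart in such sums over a whole library. The genes were therefore sorted by the cluster in which their level was highest.

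Of the 156 higher genes, 77 had their highest level in clusters 15, 16, 17, 19 or 21, and 48 in clusters 10, 12 or 18. Of all genes compared, 13.3% and 19.9% had their highest level there. Both libraries were then weighted to one mix of the 7 classes with at least 50 cells of each hairpin, which include the pair that did not pass the marker check. Macrophage-like cluster 21 and cluster 17 were too small and dropped out. The highest level of 12 higher and 8 lower genes was in those clusters, so that such genes lost most of their UMIs by construction: Lyz2 went to 1.89 and 0.585 CPM, under the filter, although it differed within cluster 21. With these limits, 3 of the 77 and 2 of the 48 were still 2-fold higher. Piwil1, which encodes a piRNA-binding protein of spermatocytes, was at 41.7 CPM with hairpin 1 and 89.9 CPM with hairpin 2, and at 61.6 and 63.8 CPM after weighting. Sycp3, a component of the synaptonemal complex, was at 115 and 227 CPM before weighting and at 169 and 169 CPM after it. Gapdh, the somatic glycolytic enzyme, was at 79.0 and 162 CPM before and at 148 and 161 CPM after. Genes highest in later germ cells were still 2-fold higher after weighting in most cases. These were 12 of 13 in the pachytene to diplotene clusters, 10 of 10 in the round spermatid and 3 of 3 in the elongating clusters. Of all genes compared, 29.7%, 19.8% and 10.8% had their highest level there. Of the lower genes, 6 of 10, 8 of 8 and 4 of 4 were still 2-fold lower. In clusters 15, 16, 17, 19 and 21 this held for 3 of 9 lower genes. In cluster 5, 3 of 3 higher genes were still 2-fold higher. In all, 33 of the 156 higher and 21 of the 31 lower genes were 2-fold apart in the same direction after weighting. The whole count was then 38 higher and 27 lower of 7328 genes compared. Of 113 named genes compared both ways, 27 changed sign, 14 of them with a log2 fold beyond 0.1 on both sides. Jchain, at 521 and 925 CPM before weighting, was at 1589 and 899 CPM after it. Its class pools clusters 15, 16 and 19, whose mix within the class was not made equal. In each of these clusters Jchain was higher with hairpin 2, at 26.1 and 598, 4850 and 7175, and 61675 and 74250 CPM.

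**Figure D2:**
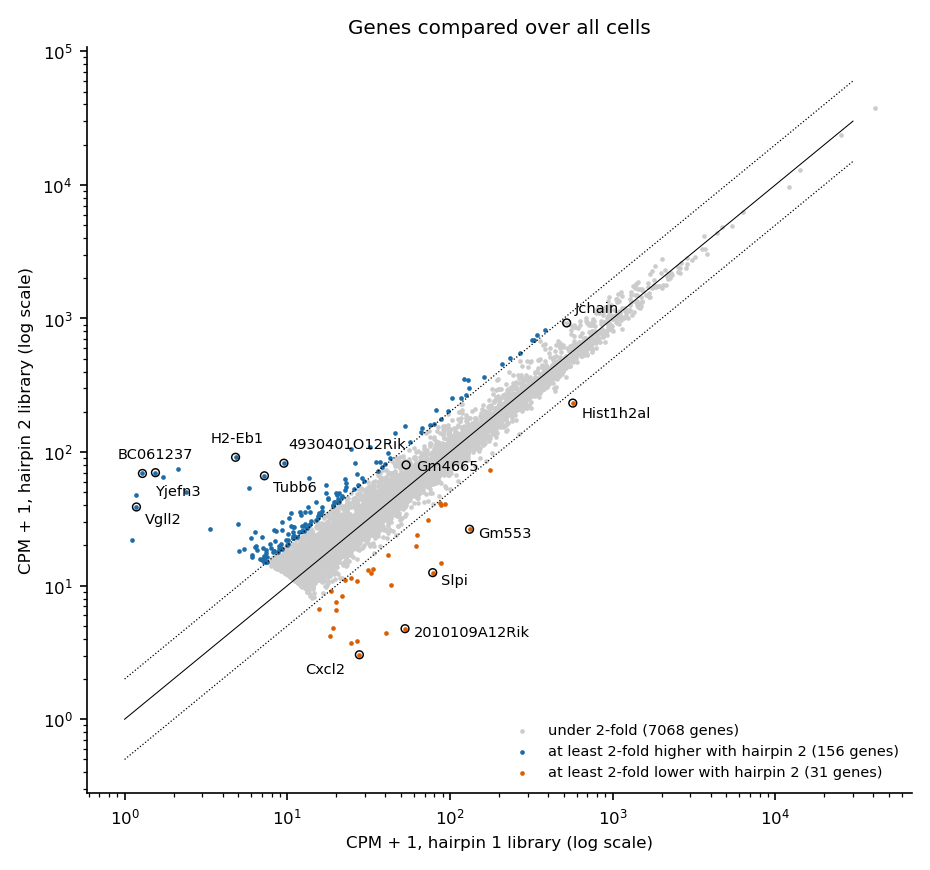
Level of each of the 7255 genes compared over all cells, as CPM + 1 on log axes, with hairpin 1 on the x axis and hairpin 2 on the y axis; the solid line is equality and the dotted lines are 2-fold. A set of genes such as BC061237, Yjefn3 and Vgll2 sits far above the lines at under 1 CPM with hairpin 1, and 2010109A12Rik, Cxcl2 and Gm553 sit below them.

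The largest differences were genes close to absent from one library and readily counted in the other. Yjefn3, which encodes a protein of the apolipoprotein A1-binding family, was at 0.548 CPM with hairpin 1 (21 UMIs) and 69.1 CPM with hairpin 2 (3085 UMIs), with 14.7 CPM in the control. Its ratio was 126 (interval 82.4 to 204). In elongating and condensing spermatids, the germ class where it was highest, the levels were 0.535 CPM, 172 CPM and 21.6 CPM. Of those cells, 1.13% with hairpin 1 and 92.0% with hairpin 2 held at least 1 Yjefn3 UMI. By single cluster, Yjefn3 was highest in cluster 5, which mixed somatic with germ cell markers.

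The long non-coding RNA gene Sox5os3, antisense to the transcription factor gene Sox5, was at 0.731 CPM with hairpin 1, 64.3 CPM with hairpin 2 and 14.7 CPM in the control. It peaked in round spermatids, at 1.34, 132 and 25.2 CPM. Sox5 itself was at 168 CPM with hairpin 1 and 173 CPM with hairpin 2. Vgll2, which encodes a cofactor of TEAD transcription factors, was at 0.183, 37.8 and 21.9 CPM. It peaked in pachytene to diplotene spermatocytes, where 3 UMIs were counted with hairpin 1 (0.277 CPM) and 927 with hairpin 2 (103 CPM), a ratio with a counting interval of 127 to 1807. The control held 59.4 CPM there, so that the low library was that of hairpin 1.

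A second antisense gene, 4930589P08Rik (opposite Camta1), followed the same order, at 1.12 CPM with hairpin 1, 73.7 CPM with hairpin 2 and 72.0 CPM in the control. Camta1 was at 30.5 and 44.5 CPM. Tubb6, a beta-tubulin gene, was at 6.24, 65.4 and 47.7 CPM, and the lincRNA gene 4930401O12Rik at 8.53, 81.5 and 116 CPM. For these genes and Vgll2, the control stood nearer to hairpin 2.

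For other genes the control stood with hairpin 1. BC061237 was at 0.287 CPM with hairpin 1, 68.1 CPM with hairpin 2 and 0.346 CPM in the control, a ratio between hairpins of 237 (interval 133 to 476). Gm5795 was at 0.183, 46.9 and 0.198 CPM and Gm8362 at 0.104, 21.0 and 0.198 CPM. Gm4353 was at 1.38, 48.9 and 2.67 CPM, and Aars2, which encodes the mitochondrial alanyl-tRNA synthetase, at 2.35, 25.3 and 1.76 CPM. Counting of several of these is uncertain because other genes are at least 95% identical to them over 200 or more bases: 15 genes for BC061237, 36 for Gm5795 and 35 for Gm8362, while Gm4353 is 99.6% identical to Nup35 over 1547 bases. No such near copy was found for Yjefn3, Sox5os3, Vgll2, 4930589P08Rik, Tubb6, 4930401O12Rik or Aars2. Of all 156 higher genes, the control level was nearer to hairpin 1 for 135 and nearer to hairpin 2 for 21. The same share over all genes compared was not counted. Cell make-up enters this count, and its part was not tested. Of the 156, 77 were highest in clusters 15, 16, 17, 19 or 21 and 48 in clusters 10, 12 or 18. Clusters 15, 16, 19 and 21 were 5.31%, 9.56% and 1.34% of cells with hairpin 1, hairpin 2 and the control. For clusters 10, 12 and 18 these shares were 5.20%, 12.3% and 6.91%.

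**Figure D3:**
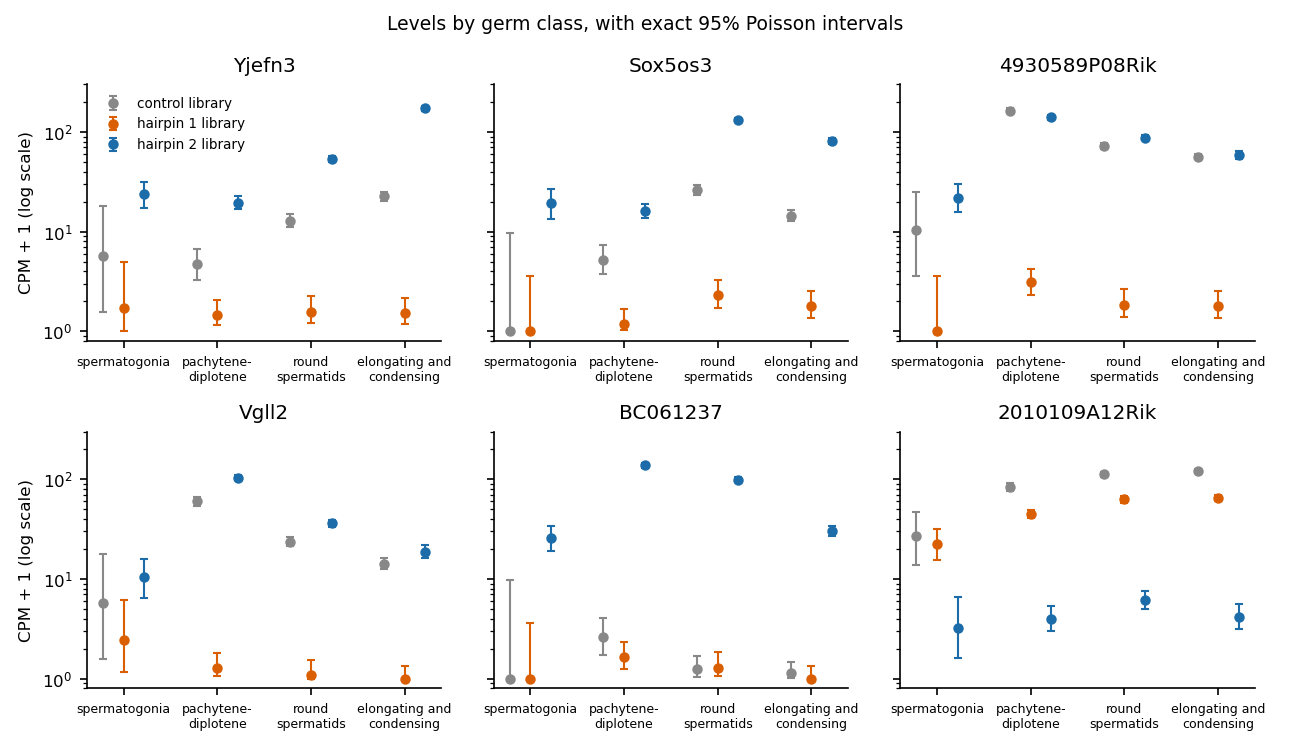
Level of 6 genes in the 4 germ classes, as CPM + 1 on a log axis, in the control (grey), hairpin 1 (orange) and hairpin 2 (blue) libraries, with exact 95% Poisson intervals. The first 5 genes are near 1 on this axis with hairpin 1 and reach 103 to 172 CPM with hairpin 2 in their highest class, and 2010109A12Rik is lowest with hairpin 2.

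Genes of the opposite kind were fewer. The protein-coding gene 2010109A12Rik was at 51.9 CPM with hairpin 1 (1991 UMIs), 3.76 CPM with hairpin 2 (168 UMIs) and 103 CPM in the control, which is 13.8-fold lower with hairpin 2 than with hairpin 1 (interval 11.8 to 16.3). It was low with hairpin 2 in every germ class compared, at 2.21 CPM against 21.3 in spermatogonia and 3.19 CPM against 63.9 in elongating and condensing spermatids. Gm553, a lincRNA gene, was at 131, 25.4 and 124 CPM. 1700064H15Rik, which overlaps Dnajc5b on the opposite strand, was at 39.2, 3.45 and 14.3 CPM, while Dnajc5b was at 554 and 485 CPM.

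For 2010109A12Rik and Gm553 the control stood with hairpin 1. Gm3848 and Tmsb15b1 were high with hairpin 1 alone: the levels were 26.0, 2.82 and 3.39 CPM for Gm3848 and 23.8, 2.73 and 3.54 CPM for Tmsb15b1, a thymosin beta gene with 2 near copies. Hist1h2al, annotated as a processed pseudogene and with 7 near copies among the histone genes, was at 568, 232 and 338 CPM. Of the 31 lower genes, the control was nearer to hairpin 1 for 16 and to hairpin 2 for 15. Here too the share over all genes compared was not counted.

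RefSeq (GRCm38.p6) listed a promoter window, 250 bases before to 50 after the start, for 23 of 38 genes looked up. The windows of 4 genes are printed for comparison of their letters: Sox5os3, Vgll2 and H2-Eb1 were far lower with hairpin 1, and the lincRNA gene 1810044D09Rik, at a log2 fold of −0.96, fell short of the 2-fold call. Capitals mark matches on either strand to TGACGTCA (the cAMP response element), CCAAT (the CCAAT box, ATTGG on the other strand) and GGGCGG (the GC box, CCGCCC on the other strand).
Sox5os3, chr6:144672618-144672917, plus strand: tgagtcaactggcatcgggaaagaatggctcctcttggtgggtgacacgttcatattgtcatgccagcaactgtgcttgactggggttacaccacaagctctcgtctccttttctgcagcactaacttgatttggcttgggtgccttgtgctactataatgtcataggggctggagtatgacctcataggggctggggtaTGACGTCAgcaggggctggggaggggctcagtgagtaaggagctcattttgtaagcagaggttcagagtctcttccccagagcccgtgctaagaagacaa
1810044D09Rik, chr6:91440737-91441036, plus strand: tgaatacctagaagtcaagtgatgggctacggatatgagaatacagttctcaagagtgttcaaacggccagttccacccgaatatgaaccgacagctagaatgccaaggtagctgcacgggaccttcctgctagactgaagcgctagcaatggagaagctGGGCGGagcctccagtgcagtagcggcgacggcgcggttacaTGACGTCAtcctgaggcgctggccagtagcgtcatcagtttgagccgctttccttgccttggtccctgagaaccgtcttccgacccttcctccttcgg
Vgll2, chr10:52022252-52022551, plus strand: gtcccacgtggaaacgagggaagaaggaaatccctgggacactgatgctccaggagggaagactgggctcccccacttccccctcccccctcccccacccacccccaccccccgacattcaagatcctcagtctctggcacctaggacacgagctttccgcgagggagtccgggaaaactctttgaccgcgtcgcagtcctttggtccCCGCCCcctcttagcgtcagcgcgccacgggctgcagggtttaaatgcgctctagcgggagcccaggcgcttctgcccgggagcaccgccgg
H2-Eb1, chr17:34305617-34305916, plus strand: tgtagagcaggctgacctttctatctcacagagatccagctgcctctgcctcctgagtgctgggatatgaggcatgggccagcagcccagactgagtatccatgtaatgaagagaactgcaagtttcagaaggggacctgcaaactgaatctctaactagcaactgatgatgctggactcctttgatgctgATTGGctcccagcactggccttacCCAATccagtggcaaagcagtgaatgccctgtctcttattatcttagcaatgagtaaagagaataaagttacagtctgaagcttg

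The cAMP response element, TGACGTCA, starts 50 bases before the start of Sox5os3 and 48 bases before that of 1810044D09Rik, and 1.79% of 32851 promoters of this length hold it. 1810044D09Rik was at 266 CPM with hairpin 1, 136 CPM with hairpin 2 and 129 CPM in the control, and was 2-fold lower with hairpin 2 in 3 of 15 germ clusters. CCAAT is in 37.4% of the promoters and GGGCGG in 35.7%. A match describes the letters of the window and no more.

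Within the 4 germ classes, 3988 genes could be compared in every class. Of these, 9 were at least 2-fold higher with hairpin 2 in all 4 (0.226%) and 3 were at least 2-fold lower in all 4 (0.0752%). The higher genes were BC061237, 4930589P08Rik, Tubb6, 4930401O12Rik, Jchain, H2-Ab1, Klk1b9, 1700001F09Rik and Gm21103. Klk1b9, a kallikrein peptidase gene, was at 67.7 CPM with hairpin 1 and 279 CPM with hairpin 2 in elongating and condensing spermatids, and at 6.38 and 27.1 CPM in spermatogonia. The lower ones were 2010109A12Rik, Gm553 and Rp9. Rp9, which encodes a splicing-associated protein, was at 336 and 126 CPM in pachytene to diplotene spermatocytes and at 169 and 78.0 CPM in spermatogonia.

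Free RNA in droplets gives UMIs of a gene in cells that do not express it, and the leukocyte clusters 15, 16, 19 and 21 give a level for germ cell genes. With cells thinned to 10000 UMIs, 11.3% of leukocytes with hairpin 2 held a BC061237 UMI, 14.2% a Yjefn3 UMI, 14.9% a 4930589P08Rik UMI and 14.2% a 4930401O12Rik UMI. In spermatogonia with hairpin 2 the thinned shares were 21.6%, 17.6%, 18.6% and 18.6%, and before thinning they were 26.0%, 25.2%, 26.7% and 22.1%. Median depth was 12595 UMIs in those spermatogonia, and 29 of 131 were too shallow to thin. Apart from BC061237, these thinned shares in spermatogonia were close to those in leukocytes, and they are not counted as expression in spermatogonia. No interval was computed for the shares. Whether free RNA or doublets gave these UMIs was not tested. For Klk1b9 the thinned share with hairpin 2 was 18.4% in leukocytes, 21.6% in spermatogonia and 18.3% in pachytene to diplotene spermatocytes. Its levels in these 2 germ classes are likewise not counted as expression there. In elongating and condensing spermatids the Klk1b9 share was 91.4%. H2-Ab1, a leukocyte gene, had thinned shares of 3.80% to 10.1% over the germ classes with hairpin 1 and 13.7% to 33.1% with hairpin 2. These are not counted as germ cell expression, and their source was not tested. In later germ classes some thinned shares with hairpin 2 were well above those in leukocytes. They were 66.1% for BC061237 and 62.2% for 4930589P08Rik in pachytene to diplotene spermatocytes, and 81.3% for Yjefn3 in elongating and condensing spermatids. With hairpin 1 they were 0.388%, 1.94% and 0.252%. By single cluster, BC061237 was highest in round spermatid cluster 2 and Yjefn3 in cluster 5.

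In spermatogonia, 97 of 8852 genes were at least 2-fold higher with hairpin 2 (1.1%) and 79 were at least 2-fold lower (0.892%). The first 6 higher by rank were Jchain, BC061237, 4930589P08Rik, Mzb1, Yjefn3 and 4930401O12Rik, and all of these peak in other cell types. BC061237 and 4930589P08Rik had 0 UMIs with hairpin 1, and were at least 11.7-fold and at least 9.88-fold higher against a floor of 3 UMIs. The lower genes were of another kind. Gm43409 was at 75.2 CPM with hairpin 1 and 2.76 CPM with hairpin 2 (106 and 5 UMIs), and 16.4 CPM in the control. Tctn1, a gene of the ciliary transition zone, was at 62.4 and 3.32 CPM (88 and 6 UMIs), and shares 1233 bases with the overlapping Hvcn1. P3h3, a collagen prolyl hydroxylase gene, was at 32.6 and 1.66 CPM (46 and 3 UMIs, a counting interval of the ratio of 6.32 to 98.9).

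Gm28578, a lincRNA gene, was at 44.0 CPM with hairpin 1, 1.66 CPM with hairpin 2 and 265 CPM in the control, so that both hairpin libraries lay below the control and hairpin 2 the lower. Gm12280 had 38 UMIs with hairpin 1 (26.9 CPM) and 0 with hairpin 2, at least 16.2-fold lower. The class held 105 and 131 cells, so that these values rest on few UMIs.

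In pachytene to diplotene spermatocytes, 41 of 6839 genes were at least 2-fold higher with hairpin 2 (0.6%) and 35 were lower (0.512%). Besides the genes above, Zmynd8, which encodes a reader of histone acetylation, was at 29.6 CPM with hairpin 1, 0.888 CPM with hairpin 2 and 26.9 CPM in the control, 33.3-fold lower with hairpin 2 (interval 16.7 to 77.9). In spermatogonia its levels were 24.1 and 18.8 CPM, so that its low level with hairpin 2 was in the spermatocytes. That difference between classes was not tested. Arg2, the mitochondrial arginase gene, was at 22.1 and 2.44 CPM, with 10.5 CPM in the control, and shares 285 bases with the overlapping Vti1b. Ccdc122 was at 43.2 and 9.65 CPM, and 1500009C09Rik at 22.5 and 3.33 CPM.

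In round spermatids, 63 of 6593 genes were at least 2-fold higher with hairpin 2 (0.956%) and 35 were lower (0.531%). Tubb6 was at 10.7 CPM with hairpin 1 and 145 CPM with hairpin 2. Pvrl4, which encodes the adhesion molecule nectin-4, was at 20.7 and 2.88 CPM, with 4.25 CPM in the control. Arg2 was at 22.4 and 3.19 CPM in these cells too. The mitochondrially encoded genes had a median of −0.59 on the log2 scale over 11 members compared, against −0.01 over all genes, and none was 2-fold apart. The mean mitochondrial share of these cells was 0.812% with hairpin 1 and 0.530% with hairpin 2, beside the different placement of cells in clusters 2 and 3. The part of that placement in the result was not tested.

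In elongating and condensing spermatids, 54 of 4934 genes were at least 2-fold higher with hairpin 2 (1.09%) and 28 were lower (0.567%). BC061237 had 0 UMIs with hairpin 1 and 258 with hairpin 2, at least 109.7-fold higher. Gm4353 was at 2.14 and 102 CPM and Aars2 at 1.96 and 52.7 CPM. Among the lower genes, Shtn1, which encodes the axon growth protein shootin-1, was at 23.01 CPM with hairpin 1 and 4.10 CPM with hairpin 2, with 27.2 CPM in the control. None of the 14 marker genes of the class, which include the protamine and transition protein genes, was 2-fold apart.

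Over the 15 germ clusters with at least 25 cells of each hairpin library, 19 genes were at least 2-fold higher with hairpin 2 in 10 or more clusters, and 7 were lower. The genes that could be compared in 10 or more clusters were not counted, so that no share can be given. 4930589P08Rik was higher in 13 of 13 clusters in which it could be compared, with log2 folds from 3.78 to 6.67. 4930401O12Rik was higher in 14 of 14 (1.55 to 4.05) and Tubb6 in 13 of 13 (1.32 to 4.76). Gm553 was lower in 14 of 14 (−3.13 to −1.73), 2010109A12Rik in 12 of 12 (−4.40 to −2.76) and Hist1h2al in 14 of 15 (−1.53 to −0.86). Dnah8, an axonemal dynein heavy chain gene, was higher in 10 of 15 clusters (0.67 to 1.62). These counts include clusters where the share of cells with a UMI was close to that in leukocytes, such as spermatogonia for 4930589P08Rik and 4930401O12Rik. Such a cluster is not taken as a separate observation. The gene 1700097N02Rik overlaps Dnah8 on the opposite strand and was at 344 and 756 CPM.

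**Figure D4:**
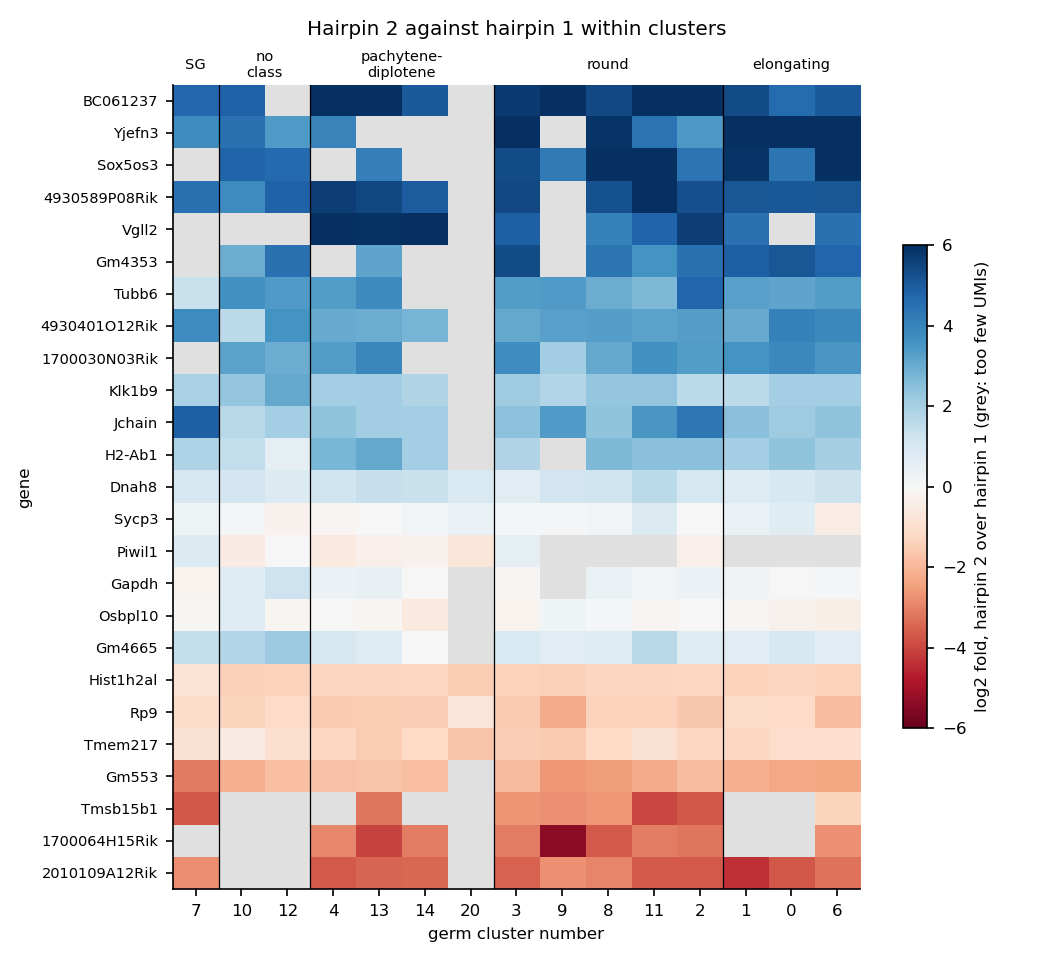
Log2 fold of hairpin 2 over hairpin 1 (colour; blue higher, red lower with hairpin 2) for 25 genes (y axis) in the 15 germ clusters (x axis), ordered from spermatogonia (SG) to elongating spermatids, with clusters of no compared class marked "no class"; grey fields had too few UMIs. Rows such as 4930589P08Rik (3.78 to 6.67) and 2010109A12Rik (−4.40 to −2.76) keep 1 colour across stages, while Sycp3 (−0.45 to 0.82) and Piwil1 (−0.70 to 0.84) stay pale.

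Gene groups drawn up for testis tissue were then counted over all cells. Of 9 leptotene to zygotene markers compared, 2 were at least 2-fold higher with hairpin 2 (Meiob at 6.03 and 14.6 CPM, and Tex101 at 103 and 252 CPM), and the median was 0.62 against 0.00 over all genes, of which 2.15% were called higher. After weighting Meiob was at 11.3 and 10.3 CPM. Of 16 synapsis and recombination genes, 1 was 2-fold higher (Meiob) and the median was 0.34. All 14 markers of elongating and condensing spermatids were lower with hairpin 2, none of them 2-fold, with a median of −0.18. Flagellum genes had a median of −0.14 over 68 compared, with 56 below 0 and 1 at least 2-fold higher (Dnah8). The acrosome list had 31 of 39 below 0 and a median of −0.11. Within the elongating class the medians were 0.02 for the class markers and −0.02 for flagellum genes. Mitochondrially encoded genes had a median of 0.33 over all cells, with 10 of 12 above 0 and none 2-fold.

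Genes that process hairpins and small RNAs were compared because both libraries carried a hairpin. Of 20, 10 were abundant enough. Ddx6, an RNA helicase of processing bodies, was the 1 that was 2-fold higher, at 5.53 CPM with hairpin 1, 17.4 CPM with hairpin 2 and 8.93 CPM in the control, and the median was 0.14. Of all genes compared, 2.15% were at least 2-fold higher. The level of Ddx6 was highest in macrophage-like cluster 21. After weighting, which leaves that cluster out, Ddx6 was at 7.86 and 16.3 CPM, short of the 2-fold call (log2 0.97). It was 2-fold higher in 2 of 5 germ clusters in which it could be compared (−0.44 to 4.49). Whether hairpin processing differed was not tested. Tnrc6a, an Argonaute partner, was at 12.3 and 18.1 CPM, and Prkra, a partner of Dicer, at 11.1 and 13.8 CPM. Of the interferon and double-stranded RNA response list, 2 of 25 genes in the table could be compared. These were Irf3 at 16.1 and 25.1 CPM and Dhx58 at 30.3 and 26.3 CPM, and neither was 2-fold apart.

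Some antigen presentation genes were at least 2-fold higher with hairpin 2 over all cells, where 2.15% of genes were. Of 11 class I genes compared, 3 were at least 2-fold higher: the immunoproteasome genes Psmb8 (16.7 and 43.9 CPM) and Psmb9 (6.84 and 19.4 CPM), and the proteasome activator gene Psme2 (18.5 and 41.4 CPM). Of 6 class II genes compared, H2-Eb1 (3.81 and 90.4 CPM) and H2-DMb2 (4.38 and 17.8 CPM) were at least 2-fold higher. Summed over 9 markers of antibody-producing cells in the table, the level was 644 CPM with hairpin 1, 1168 CPM with hairpin 2 and 31.6 CPM in the control. Of 5 such markers compared, 2 were 2-fold higher (Cd79a and Mzb1). After weighting Mzb1 was at 226 and 158 CPM, but the weighted class pools clusters 15, 16 and 19, whose mix differed between the libraries. Those clusters held 17, 13 and 29 cells with hairpin 1 and 62, 68 and 31 with hairpin 2. Within them Mzb1 was at 412 and 734, 2570 and 2586, and 6701 and 5932 CPM. The antigen presentation genes stood after weighting at 34.8 and 39.6 CPM (Psmb8), 13.6 and 17.8 (Psmb9) and 26.4 and 37.0 (Psme2). H2-DMb2 was then at 8.84 and 15.5 CPM, and H2-Eb1, which alone of these was still 2-fold higher, at 4.89 and 68.7 CPM. Beyond that weighting, the part of cell make-up in these counts was not tested. The macrophage list went the other way, at 217 and 111 CPM over 13 markers, with Lyz2, C1qa and C1qb at least 2-fold lower of 5 compared. Of all genes compared over all cells, 0.427% were at least 2-fold lower. Leydig, myoid, mesenchymal, endothelial, neutrophil and red blood cell markers had no member abundant enough to compare, at summed levels under 20 CPM in both hairpin libraries, and 4 of 12 Sertoli markers were compared, none of them 2-fold apart (69.1 and 122 CPM over the list).

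H2-Eb1, which encodes the beta chain of the class II molecule I-E, differed from the other class II genes within leukocyte clusters. In cluster 15, led by the B cell genes Ms4a1 and Ebf1, it was at 178 CPM with hairpin 1 (34 UMIs in 17 cells) and 2208 CPM with hairpin 2 (1835 UMIs in 62 cells). In cluster 21, led by macrophage genes, it was at 219 CPM (69 UMIs, 33 cells) and 3978 CPM (927 UMIs, 18 cells). In cluster 16 it was at 29.3 and 541 CPM, and in cluster 19 at 34.4 and 430 CPM. The intervals of the libraries were apart in all 4 clusters, but they leave out the spread between cells. Clusters 15, 16 and 21 fall under the minimum of 25 cells of each hairpin library used for germ clusters. Many genes were at least 2-fold higher with hairpin 2 there: 308 of 3912 compared in cluster 15 and 364 of 5844 in cluster 16. In clusters 19 and 21 these were 90 of 2876 and 86 of 2476. H2-Eb1 is itself among the 10 leading genes of cluster 15, but not of the other 3. In the control, H2-Eb1 was at 2891 CPM in the 11 cells of cluster 15 and at 5244 CPM in the 5 cells of cluster 21, on the side of hairpin 2.

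Other class II genes were closer between the libraries. Cd74, the invariant chain, was at 9805 and 9659 CPM in cluster 15. With intervals apart, it was at 7189 and 6350 CPM in cluster 19 and at 21431 and 17818 CPM in cluster 21. H2-Aa, the alpha chain of the class II molecule I-A, was at 3717 and 4354 CPM in cluster 15 and at 869 and 1461 CPM in cluster 16. Its intervals were apart in both. H2-Ab1, the beta chain of I-A, was at 2135 and 2099 CPM in cluster 15. With intervals apart, H2-Ab1 was at 1052 and 1363 CPM in cluster 16, 2304 and 1537 CPM in cluster 19, and 8543 and 7742 CPM in cluster 21. Psmb8 was at 397 and 466 CPM in cluster 15 and at 818 and 736 CPM in cluster 16.

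**Figure D5:**
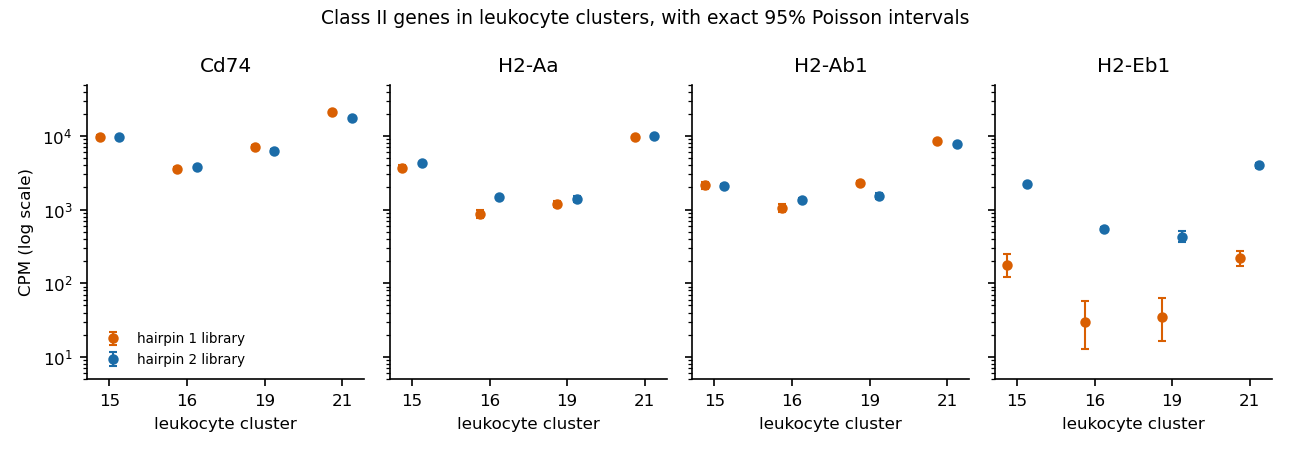
Levels of 4 class II genes (CPM, log axis) in leukocyte clusters 15, 16, 19 and 21 (x axis) with hairpin 1 (orange) and hairpin 2 (blue), with exact 95% Poisson intervals. Points of Cd74, H2-Aa and H2-Ab1 lie within 2-fold of each other, and H2-Eb1 is lower with hairpin 1 in each cluster, for example 178 against 2208 CPM in cluster 15.

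Macrophage-like cluster 21 differed at least 2-fold in all 10 of its leading genes, which include Lyz2, C1qa, Cxcl2, Ccl4 and Ccl8. Of 2476 genes compared there, 188 were at least 2-fold lower with hairpin 2 and 86 were at least 2-fold higher. The leading genes were picked from the pooled cells, 33 with hairpin 1 and 18 with hairpin 2. That choice can favour genes high with hairpin 1. Cluster 21 also falls under the minimum of 25 cells of each hairpin library used for germ clusters. Lyz2, the macrophage lysozyme gene, which has 1 near copy, was at 4923 CPM there with hairpin 1 and 1635 CPM with hairpin 2, and C1qa, a complement gene, at 2062 and 614 CPM. Cxcl2, a chemokine that attracts neutrophils, was at 26.7 and 2.04 CPM over all cells, Ccl4 at 87.3 and 13.8 CPM, and Ccl8 at 17.2 and 3.18 CPM. In cluster 19, led by Slpi, Jchain and Mzb1, Slpi, a secreted protease inhibitor gene, was at 9661 and 617 CPM. With 18 to 33 cells of a library in these clusters, such values describe few cells.

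Jchain, which encodes the joining chain of secreted antibodies, was also counted in germ cells. In cluster 19 it was at 61675 CPM with hairpin 1 and 74250 CPM with hairpin 2. In pachytene to diplotene spermatocytes it was at 10.4 and 51.7 CPM, and in elongating and condensing spermatids at 11.9 and 62.6 CPM. In spermatogonia it was at 7.80 and 264 CPM, but 76.1% of the hairpin 2 UMIs there came from 1 cell. Without the cell of each library with the most Jchain UMIs, the levels were 7.14 and 63.5 CPM. In round spermatids 1 cell held 52.0% of the UMIs, and the levels were 11.9 and 171 CPM with it and 11.47 and 82.0 CPM without it. Thinned shares of cells with a Jchain UMI were 7.59% to 11.6% over the germ classes with hairpin 1 and 39.0% to 50% with hairpin 2. The share was thus similar over the germ classes of a library and higher in the hairpin 2 library. It is not counted as germ cell expression. Whether free RNA or doublets gave these UMIs was not tested.

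The genes that remained 2-fold apart after weighting were placed on the chromosomes (GENCODE vM21, mm10). Of these 65 genes, 10 were on chromosome 14 (15.4%), which carries 258 of the 6981 compared genes with a position (3.70%). BC061237, Gm5795, Gm21103 and 1700001F09Rik are among the chromosome 14 genes, and each has at least 10 near copies. Chromosome 9, which carries Gm4665, held 1 of the 65.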

How the data were processed

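Germ cells of 3 libraries were profiled by 3' single-cell RNA sequencing, each library pooling 3 mice. Cell Ranger 1.3.1 and Seurat 2.0.0 and the mm10 build are named in the submitters' processing notes. The deposited values are natural log (ln) values made by the authors, ln(1 + 10000 × UMIs / total) per cell, as read from the table: each of the 5023 cells sums to 10000 once the log is undone. Whole UMIs were recovered for 100% of 20140203 non-zero values (tolerance 0.01). The annotation and the authors' cell filters are not stated in the labels.

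UMIs were summed per library over all cells, a class or a cluster and scaled to CPM. A gene was compared at a mean of at least 10 CPM and 30 UMIs, and called at a 2-fold difference of CPM + 1. Intervals are exact (Poisson for CPM, Clopper-Pearson for shares and ratios) and cover counting error only, and 0 UMIs were replaced by a floor of 3. With 1 library per hairpin no test was run. Cells were clustered with scanpy 1.11.5 (2000 variable genes, 30 components, 15 neighbours, Leiden resolution 0.8). No cell was removed and doublets were not called. A class was compared only if none of its clusters had more markers of another class than of its own among its 10 leading genes. Thinning to 10000 UMIs kept 1202 cells with hairpin 1 and 1541 with hairpin 2. Weighted values average class CPM with the mean class shares of the hairpin libraries, over 7 classes. The scripts were checked on simulated data. Near copies were sought with blastn 2.17.0.

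Members and gene lists were chosen with earlier results of these data known. Genes named are the 12 with the largest fold in each direction over all cells, the first 6 in each class, the first 10 by smallest fold among those with the same sign in every class, up to 4 members of each list, Gm4665, Osbpl10, and the 2 most abundant markers of each non-germ type. Sycp3, Sox5, Camta1, the neighbours and the overlapping genes were added for their position or role, and some list members after their values were seen. 1 gene that the rule names is not reported here.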

Additional observations from a re-analysis of the deposited data

How the results depend on the processing

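No paired analysis was possible because each hairpin has 1 library, and for the same reason no library could be left out. Over all cells the 156 higher and 31 lower genes became 62 and 11 with a filter at 30 CPM, 374 and 104 with no CPM filter, and 3 and 1 for a difference of 0.5 between mean ln values; a pseudocount of 5 CPM gave 87 higher. The filter at 30 CPM gave 14 higher and 16 lower genes in spermatogonia, 18 and 11 in spermatocytes, 17 and 10 in round spermatids, and 15 and 11 in elongating spermatids. A pseudocount of 5 CPM gave 42 higher and 39 lower in spermatogonia and 30 higher in elongating spermatids. With the control left out of the clustering, spermatogonia had 45 higher genes. The stricter settings test fewer genes or shrink low ones by construction.

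Class shares moved with the clustering (hairpin 1, then hairpin 2). Spermatogonia were 8.66% and 9.45% without the control, 8.74% and 9.085% with thinned cells, and 4.85% and 4.86% at resolution 1.2. Pachytene to diplotene cells were 11.4% and 12.4% without the control and 22.8% and 18.6% with thinned cells, and 17.8% with hairpin 2 when Gm4665 was left out. Round spermatids were 23.9% and 20.5% without Gm4665, 13.98% and 16.5% with thinned cells, and 24.4% and 21.9% at resolution 1.2. Elongating spermatids were 37.4% and 24.8% without the control, 37.1% and 24.99% without Gm4665, 43.5% and 30.045% with thinned cells, and 37.2% and 25.7% at resolution 1.2, lower with hairpin 2 each time. The cause of these moves was not tested. Under other scalings and a pseudocount of 5 CPM, 0 values of single named genes over all cells reversed; weighting to one class mix did turn the sign of some, Jchain (log2 0.83 to −0.82), Mzb1 (1.08 to −0.51), Sycp1 (0.82 to −0.19) and Mnd1 (0.68 to −0.19) among them. Leaving out the cell with most Jchain UMIs was chosen after seeing the data.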
